A study of Mus musculus with 10 samples.

Results

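The enzymes of the tricarboxylic acid (TCA) cycle, with pyruvate carboxylase, were described at the level of accessible chromatin around their genes in mouse Th17 cells, a class of helper T cell known for secreting interleukin-17. The members were 10 genes chosen by name: Cs, Idh1, Idh2, Idh3a, Ogdh, Suclg2, Fh1, Mdh1, Mdh2 and Pcx. A site of the deposited table was given to the protein-coding gene whose body overlapped it or lay nearest within 50 kb, and 30 of 39657 sites fell to 9 of the 10 members. Cs and Mdh1 had 5 sites each, Ogdh, Suclg2 and Mdh2 had 4 each, Idh2 and Pcx had 3 each, and Idh3a and Fh1 had 1 each. Of the 30 sites 15 overlapped the gene body and 15 lay outside it, and all 30 were 201 bp wide. No site fell to Idh1.

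Chromatin was profiled by ATAC-seq, in which a transposase cuts and tags open DNA. Naive CD4+ T cells from spleen and lymph nodes were cultured for 3 days with IL-6 at 30 ng/mL, TGFβ at 2 ng/mL, plate-bound anti-CD3 at 5 µg/mL, anti-CD28 at 1 µg/mL and anti-IFNγ at 5 µg/mL. The cells came from PDHfl/fl CD4 Cre+ mice (KO) or from PDHfl/fl mice without Cre (WT), so the controls carried the floxed alleles too and lacked the Cre transgene. Both were cultured untreated or with 10 mM sodium acetate in the medium, which gave KO untreated (n = 3 libraries), WT untreated (n = 3), KO with acetate (n = 2) and WT with acetate (n = 2). CD4-Cre is driven by Cd4 regulatory sequence and acts in the T cell lineage from the thymus on. The labels give the genotype as PDH knockout, while the sample titles spell the allele PHD-fl/fl, and no deposited site tests the deletion itself. Nothing in the labels says that libraries of a group came from separate animals, so p-values measure only the spread between these libraries. The Th17 and CD4 T cell markers Il17a, Il17f, Il23r, Ccr6 and Cd4 all had sites in the table, and neither gene of a CD8 list did. Sites also fell to 2 of 5 myeloid markers (Spi1 and Itgam, 5 sites) and 2 of 3 natural killer cell markers (Klrb1c and Eomes, 11 sites). Having a site therefore does not by itself identify the cell type. Of the 8 Cd4 sites, limma called 6 up and 2 down in KO relative to WT without acetate, as deposited. Why the Cd4 sites differed was not tested.

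In the mitochondrial matrix the cycle condenses acetyl-CoA with oxaloacetate to citrate, oxidises it in steps that yield reduced cofactors, and regenerates oxaloacetate. Pyruvate dehydrogenase, the enzyme deleted here, supplies acetyl-CoA from pyruvate, while pyruvate carboxylase, encoded by Pcx, makes oxaloacetate from the same pyruvate. Citrate that leaves the mitochondrion is a source of cytosolic acetyl-CoA for lipid synthesis and histone acetylation, and acetate can be turned into acetyl-CoA directly.

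Several of the strongest member sites lay at transcription starts, and the windows below show 4 sites of this kind. Each window runs from 250 bases before to 50 after a start listed by RefSeq (GRCm38.p6), is written 5′ to 3′ on the gene's strand, and has in capitals the bases that lie inside the accessible site. These 4 are shown because they are the member windows that a site of that member overlapped. Cs lies at chr10:128337477-128337776 on the plus strand, Idh2 at chr7:80115301-80115600 on the minus strand, Suclg2 at chr6:95718797-95719096 on the minus strand and Mdh2 at chr5:135778399-135778698 on the plus strand.
Cs: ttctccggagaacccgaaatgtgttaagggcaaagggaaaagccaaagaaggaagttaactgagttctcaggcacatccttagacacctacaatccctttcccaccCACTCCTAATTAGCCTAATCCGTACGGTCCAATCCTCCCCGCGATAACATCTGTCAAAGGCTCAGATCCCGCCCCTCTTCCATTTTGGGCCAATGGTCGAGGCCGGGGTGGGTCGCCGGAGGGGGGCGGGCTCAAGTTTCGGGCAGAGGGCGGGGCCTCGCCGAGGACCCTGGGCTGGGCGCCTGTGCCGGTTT
Idh2: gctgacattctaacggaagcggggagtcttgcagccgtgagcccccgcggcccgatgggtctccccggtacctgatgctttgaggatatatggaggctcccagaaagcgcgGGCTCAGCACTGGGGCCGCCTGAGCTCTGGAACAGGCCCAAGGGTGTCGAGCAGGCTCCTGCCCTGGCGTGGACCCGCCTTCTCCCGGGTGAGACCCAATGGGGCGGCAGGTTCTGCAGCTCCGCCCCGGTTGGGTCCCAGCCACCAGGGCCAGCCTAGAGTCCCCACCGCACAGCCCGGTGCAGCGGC
Suclg2: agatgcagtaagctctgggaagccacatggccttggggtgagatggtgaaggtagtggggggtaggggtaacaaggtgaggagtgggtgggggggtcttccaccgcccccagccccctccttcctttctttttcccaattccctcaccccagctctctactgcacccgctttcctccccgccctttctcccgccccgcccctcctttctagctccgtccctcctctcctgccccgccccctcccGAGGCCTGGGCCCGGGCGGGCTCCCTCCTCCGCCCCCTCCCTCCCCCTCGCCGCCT
Mdh2: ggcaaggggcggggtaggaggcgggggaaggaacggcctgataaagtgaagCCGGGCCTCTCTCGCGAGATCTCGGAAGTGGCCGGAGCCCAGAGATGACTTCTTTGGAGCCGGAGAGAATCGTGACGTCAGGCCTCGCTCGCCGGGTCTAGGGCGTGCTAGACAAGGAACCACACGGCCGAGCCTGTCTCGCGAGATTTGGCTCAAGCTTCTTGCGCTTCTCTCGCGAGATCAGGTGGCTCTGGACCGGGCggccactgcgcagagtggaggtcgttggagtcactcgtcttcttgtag

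Counting the start as position 0, the Cs site covered 194 bases of its window, from -144 to 49, and the Idh2 site 189 bases, from -139 to 49. The Mdh2 site lay almost wholly upstream, from -199 to 1, and the Suclg2 site covered only 56 bases, from -6 to 49. The windows chosen for Ogdh, Fh1, Mdh1 and Pcx overlapped no site of those members, and Idh3a was not matched in the promoter table, so 9 of 10 members had a window. The Idh1 window was overlapped by a site that went to another gene, Pikfyve. Short motifs were searched in the 9 windows on both strands. The SP/KLF motif GGGCGG was present in 9 of 9, against 35.7% of 32851 mouse promoter windows, and the CCAAT box (CCAAT) in 8 of 9, against 37.4%. GC content was 54.3% to 68.3% in the 9 windows, above the median of 52.7% over all windows. The CRE motif TGACGTCA was in 2 of 9 (1.79% of all windows): in the Mdh2 window at -127, inside the accessible site, and in the Ogdh window. The E-box CACGTG was in 1 (7.15%) and the RUNX motif TGTGGT in 1 (16.8%). The letters of NRF1 (0.971%), ETS (CCGGAAG, 8.86%) and AP-1 (TGANTCA, 7.81%) were in none of the 9. No match overlapped one of another motif, but a pair of SP/KLF matches in the Suclg2 window, at -61 and -56, overlapped each other. A match is a match of letters only. Each member window was its listed one nearest a site, while the shares cover all windows without that choice. GC content was not matched either.

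The deposited values are signal, in which the reads of a site were scaled by a single number for each library. How that number was obtained is not stated in the labels used. Library depth within sites was 3500172 to 13356560 reads, and a member site held between 3 and 1392 reads. The prefix ATAC1 stood in the column names of all KO untreated libraries and of WT untreated 1 and 2, and ATAC2 in those of the other 5 libraries. KO untreated and acetate-treated KO libraries therefore share no prefix, so acetate and prefix cannot be told apart there. The share of signal on mitochondrial DNA was 1.18% to 2.01% in KO untreated and 0.201% to 0.658% in the other libraries, and its part in the results was not tested. Member sites held 0.0836% to 0.0902% of the signal in every library, with 0.0861% to 0.0902% in KO untreated, 0.0836% to 0.0898% in WT untreated, 0.0867% to 0.0877% in KO with acetate and 0.0861% to 0.0887% in WT with acetate. The ranges of the 4 groups overlapped.

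All sites being of equal width, levels could be set side by side. Mdh2 site 1, at the start of the gene of mitochondrial malate dehydrogenase, was the highest of the 30, at 4.98 to 7.79 times the library's median site. Next came Ogdh site 1, 226 bp past a start of the gene of the oxoglutarate dehydrogenase E1 subunit, at 4.00 to 6.12 times the median. Cs, the citrate synthase gene, had its highest site in the gene body (site 5, 3.88 to 5.98 times) and one almost as high at its start (site 3, 3.71 to 6.07 times). Idh2, for mitochondrial NADP-dependent isocitrate dehydrogenase, followed at 3.74 to 5.31 times. Pcx site 2 reached 2.92 to 3.78 times and the single site of Idh3a, for a subunit of the NAD-dependent enzyme, 2.53 to 4.01 times. Leading sites were lower for Suclg2, the GTP-forming succinyl-CoA ligase subunit (1.12 to 3.37 times), for fumarase, Fh1 (1.10 to 1.55 times), and for cytosolic malate dehydrogenase, Mdh1 (0.837 to 1.63 times). Neighbours in this order overlapped over the 10 libraries. The lowest of the 30 was Suclg2 site 2, at 0.0272 to 0.606 times the median.

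**Figure D1:**
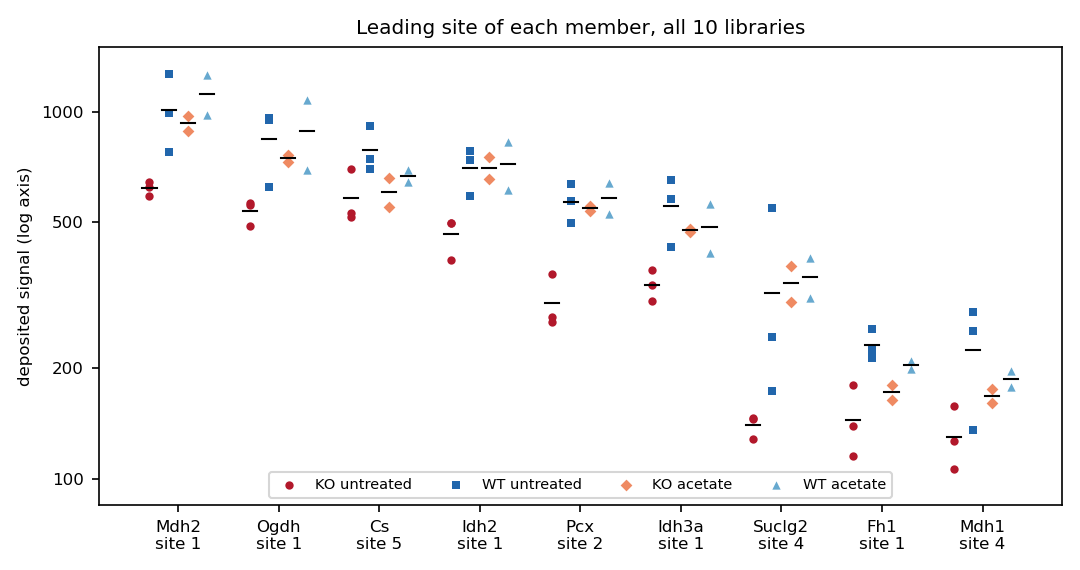
Deposited signal (log axis) of the leading site of each of the 9 members in each of the 10 libraries, coloured by group, with a line at each group mean. Mdh2, Ogdh, Cs and Idh2 stand highest, Fh1 and Mdh1 lowest, and at each gene the untreated KO libraries have the lowest mean.

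The 8 sites within 1 kb of a member's start had a median site signal of 453, the 12 sites outside the body and over 1 kb from a start 138, and the 9 body sites over 1 kb from a start 81.2. Idh3a had no listed start and stood at 449.

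The first comparison asked how loss of the enzyme altered accessibility without added acetate. As deposited, 27 of the 30 sites were lower in KO than in WT and 3 were higher, each with an adjusted p under 0.05 (limma, adjusted over all sites). This split, 90% lower and 10% higher, was near that of the whole table, in which 89.6% of sites were lower and 9.07% higher. The table's sites are numbered as differential ones. If they were chosen by a test of these same libraries, the p-values here are not an independent test. The median log2 difference was -0.85 over the member sites and -0.84 over all sites, and 15 of 30 members lay above the all-site median. When the libraries were aligned by cyclic loess, which brings the all-site median to 0, no member site was lower (2.41% of all sites) and the same count of 3 was higher (9.35%). With median-of-ratios factors 4 were higher (9.63%) and 0 lower (3.34%), and with total signal 3 were higher (9.38%) and 0 lower (5.74%). In bulk libraries a site open in fewer cells and a site less open in each cell cannot be told apart. The 24 sites lower without overlap between groups and the 2 higher stood beside 80.9% and 8.61% of the table.

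Citrate synthase, which opens the cycle, had a small fall as deposited at its strong sites. Cs site 5 (chr10:128344995-128345195) measured 516, 530 and 700 in KO untreated and 917, 697 and 742 in WT untreated, and the groups overlapped. Its log2 difference was -0.44 ± 0.19 (SE; limma adjusted p = 0.0214) as deposited and 0.25 after loess. Cs site 3, at the start, differed by -0.46 ± 0.19 (limma adjusted p = 0.0164), or 0.23 after loess. With median-of-ratios factors Cs site 5 was called higher in KO, at 0.37 (limma adjusted p = 0.0358), so its direction depends on the scaling.

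The weaker Cs sites, 1 and 2 outside the gene body and 4 within it, had larger deposited differences. Cs site 2 (chr10:128337306-128337506), 321 bp before the start, measured 19.2, 12.1 and 16.6 in KO against 51.2, 34.2 and 53.1 in WT. Every KO library was below every WT library, at -1.47 ± 0.34 (limma adjusted p = 8.61e-05), the lowest difference among the 30, and -0.61 after loess. Cs sites 1 and 4 differed by -0.91 ± 0.22 and -0.87 ± 0.26, close to the all-site median, and by -0.048 and 0.058 after loess.

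The isocitrate dehydrogenase genes were lower in KO as deposited at each of their sites. Idh2 site 1 (chr7:80115289-80115489) had a mean of 464 ± 59.7 (SD, n = 3) in KO and 703 ± 103 (SD, n = 3) in WT, from 395, 499 and 499 against 783, 588 and 740. The log2 difference was -0.60 ± 0.19 (limma adjusted p = 0.00248) and 0.10 after loess. Idh2 site 3, upstream of the gene, differed by -0.92 ± 0.22 (limma adjusted p = 0.000113), or -0.071 after loess. Idh3a (chr9:54586260-54586460, 51 bp outside the gene body) measured 305, 372 and 337 in KO and 578, 427 and 652 in WT, without overlap. Its difference was -0.69 ± 0.20 (limma adjusted p = 0.00115) as deposited and 0.060 after loess. Idh1, for the cytosolic NADP-dependent enzyme, was represented by no site of its own: the site 51 bp from its body (chr1:65186530-65186730) overlaps Pikfyve and went to that gene. The same site covered 200 bases of the Idh1 promoter window, from -250 to -51, so the Idh1 promoter was not without an accessible site. That neighbouring site measured 305, 375 and 350 in KO and 674, 450 and 784 in WT, a difference of -0.86 ± 0.20 (limma adjusted p = 8.89e-05) and -0.13 after loess.

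Ogdh, whose product oxidises 2-oxoglutarate, had a start site above the table's median difference and a distal pair (sites 3 and 4) below it. Their differences ranked at percentiles 78.9 (site 1), 5.32 (site 3) and 10.1 (site 4) of all sites. Ogdh site 1 (chr11:6291785-6291985) measured 490, 558 and 565 in KO and 949, 623 and 964 in WT, at -0.63 ± 0.19 (limma adjusted p = 0.00135) and 0.045 after loess. Ogdh site 3 (chr11:6369828-6370028), 10734 bp beyond the 3′ end, measured 25.2, 48.6 and 27.2 in KO and 81.2, 71.3 and 109 in WT. KO was lower in every library, at -1.39 ± 0.27 (limma adjusted p = 6.54e-06) and -0.46 after loess. Ogdh site 4, 12355 bp beyond the 3′ end, differed by -1.25 ± 0.28 (limma adjusted p = 7.49e-05) and -0.33 after loess, and neither loess value passed the test.

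Suclg2, whose product makes succinate and GTP from succinyl-CoA, held the largest rises. Suclg2 site 2 (chr6:95555117-95555317), in the gene body and 163629 bp from the start, measured 20.8, 57.0 and 70.9 in KO untreated and 12.5, 21.1 and 4.42 in WT untreated. These values rest on 38, 61 and 60 reads against 10, 21 and 4, and the lowest KO library lay just below the highest WT library. The difference was 1.94 ± 0.46, or 3.83-fold on the log2(value + 1) scale (limma adjusted p = 0.000226), and 2.72 after loess (limma adjusted p = 0.000974).

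Suclg2 site 3 (chr6:95627222-95627422), also in the body and 91524 bp from the start, measured 43.9, 64.4 and 66.2 in KO and 27.5, 19.1 and 14.4 in WT. The groups did not overlap, and the site was 2.82-fold higher in KO, at 1.50 ± 0.31 (limma adjusted p = 2.36e-05) and 2.38 after loess (limma adjusted p = 2.92e-06). At the gene's start the deposited signal was lower in KO, as at most sites of the table. Suclg2 site 4 (chr6:95718652-95718852) measured 146, 129 and 147 in KO and 243, 174 and 548 in WT. WT untreated 4 was the highest of the 10 libraries there. The difference was -1.02 ± 0.25 (limma adjusted p = 0.000289), or -0.55 (limma adjusted p = 0.0283) among the ATAC1 libraries alone. After loess it was -0.19 (limma adjusted p = 0.801). Within ATAC1 the rises were 1.38 at site 2 (limma adjusted p = 0.000221) and 1.28 at site 3 (limma adjusted p = 0.000206).

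**Figure D2:**
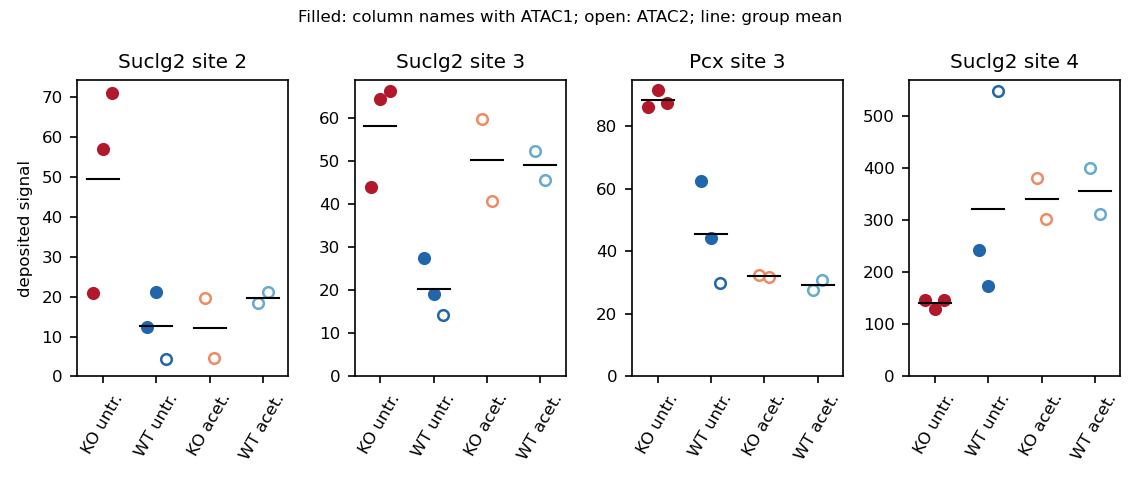
Deposited signal (linear axes from 0) at Suclg2 sites 2 and 3, Pcx site 3 and Suclg2 site 4, with 1 point per library, filled for ATAC1 and open for ATAC2 column names, and a line at each group mean. The first 3 sites are highest in KO untreated on average, and at Suclg2 site 4 the KO untreated libraries lie lowest, from 129 to 147.

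Fumarase and the malate dehydrogenases close the cycle. The Fh1 site (chr1:175626066-175626266), 531 bp before the start, measured 116, 139 and 181 in KO and 256, 225 and 213 in WT, at -0.69 ± 0.22 (limma adjusted p = 0.00231) and 0.16 after loess. Mdh2 site 1 (chr5:135778450-135778650) measured 624, 644 and 591 in KO and 991, 776 and 1266 in WT. Its difference was -0.68 ± 0.18 (limma adjusted p = 0.000398) and -0.039 after loess. The body of the gene Styxl1 lies 26 bp from the edge of this site. Mdh2 site 2, in the body, differed by -1.08 ± 0.22 (limma adjusted p = 1.12e-05) and -0.24 after loess, with all 3 KO libraries between 124 and 130 and the WT libraries between 224 and 307.

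The Mdh1 sites were weaker. Mdh1 site 2 (chr11:21549837-21550037), 6655 bp beyond the 3′ end, measured 52.6, 68.2 and 76.9 in KO and 159, 202 and 134 in WT. This separation of -1.31 ± 0.23 had the smallest p of the 30 (limma adjusted p = 6.35e-07), with -0.44 after loess. Mdh1 site 4 (chr11:21570174-21570374), the leading one, measured 127, 106 and 158 against 285, 253 and 136, overlapping, at -0.73 ± 0.22 (limma adjusted p = 0.00186) and 0.12 after loess.

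Pcx, whose product feeds oxaloacetate into the cycle apart from pyruvate dehydrogenase, differed among its own sites. Pcx site 2 (chr19:4615784-4615984), in the gene body but 217 bp from the start of Lrfn4, measured 268, 276 and 362 in KO and 634, 499 and 572 in WT, at -0.92 ± 0.20 (limma adjusted p = 3.47e-05) and -0.17 after loess. Pcx site 1, 1987 bp before the start, was lower by a like amount, at -0.89 ± 0.21 (limma adjusted p = 9.7e-05), and -0.084 after loess. Pcx site 3 (chr19:4620147-4620347), further along the Pcx body and 2246 bp from the gene body of Rce1, measured 86.1, 91.5 and 87.5 in KO and 62.4, 44.2 and 29.9 in WT. The groups did not overlap, and KO was 2.01-fold higher, at 1.00 ± 0.30 (limma adjusted p = 0.00128), with 1.91 after loess (limma adjusted p = 9.53e-06). Among the ATAC1 libraries alone the rise was 0.74 (limma adjusted p = 0.0101).

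**Figure D3:**
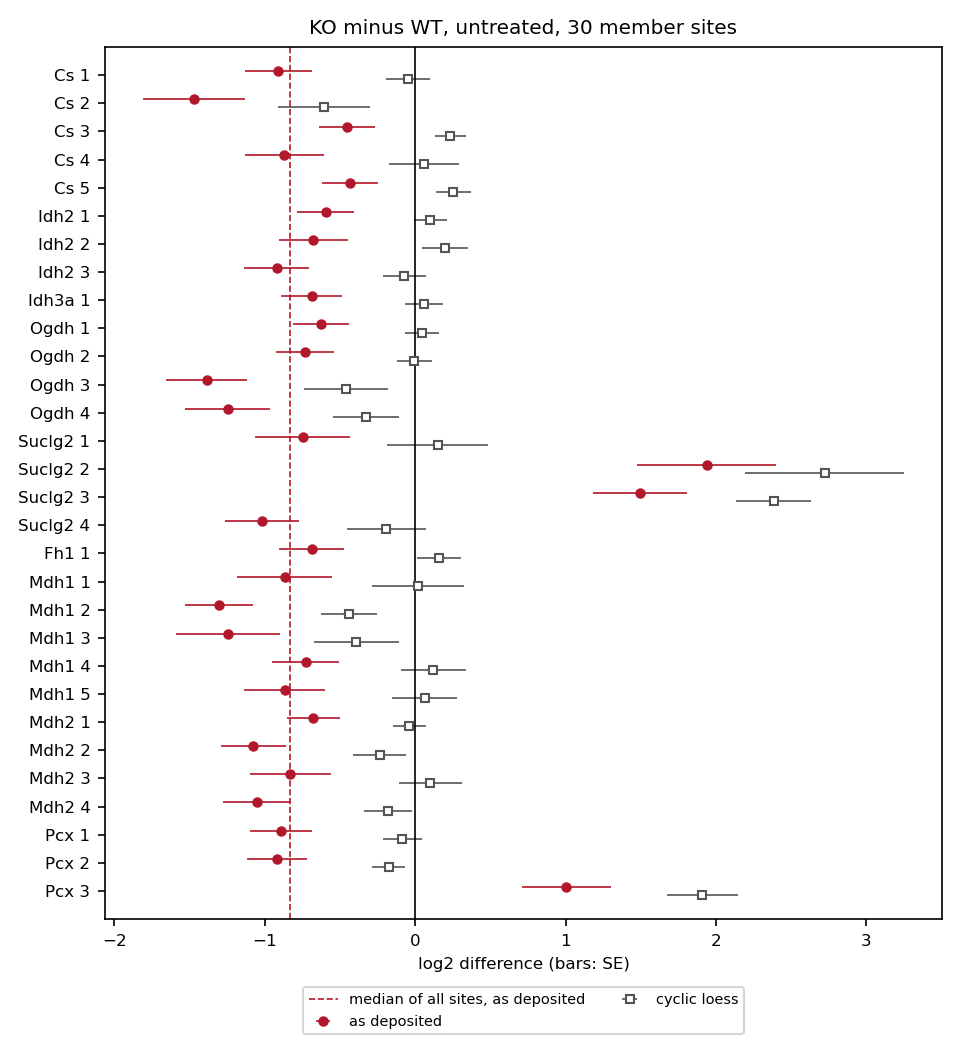
Log2 difference, KO minus WT, untreated, for the 30 member sites, as deposited (filled) and after cyclic loess (open), with bars for the SE and a dashed line at the median of all sites as deposited. Suclg2 sites 2 and 3 and Pcx site 3 lie above 0 on both scales, and the other 27 lie around the dashed line as deposited and around 0 after loess.

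The 3 sites that rose lie in gene bodies far from a start of their own gene, and ranked at percentiles 99.3 (Suclg2 site 2), 98.0 (Suclg2 site 3) and 94.4 (Pcx site 3) of the log2 differences of all sites. Of the B cell markers Pax5, Ms4a1, Cd79a and Cd79b only Pax5 had sites, 4 in all, and 3 of those were higher in untreated KO as well. Their summed signal was 188 to 265 in KO untreated, 67.4 to 99.5 in WT untreated, 98.0 to 121 in KO with acetate and 80.7 to 92.3 in WT with acetate. The part of B cells in the rise was not tested.

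With acetate present, no member site passed the test between KO and WT. Of the 30 sites 0 passed an adjusted p under 0.05 in limma and 0 had an unadjusted p under 0.05. Over all sites 0.0227% were higher and 0 lower. Differences ran from -0.96 ± 0.57 at Suclg2 site 2 to 0.26 ± 0.33 at Ogdh site 3, with a median of -0.15 over the members and -0.15 over all sites. The counts were also 0 after loess and with both other scalings. The 2 groups did not overlap at 1 site higher and 12 lower (4.63% and 30.3% of all sites). With 2 libraries in each group, differences of the size of these SEs were not detectable. At Pcx site 3 the KO libraries measured 32.4 and 31.7 and the WT libraries 27.7 and 30.9. At Suclg2 site 2 they measured 19.6 and 4.53 against 18.5 and 21.1, from 23 and 3 reads against 6 and 30.

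Within KO, 18 member sites were higher with acetate than without it, 2 were lower and 10 did not pass (limma). The whole table had 54.6% of sites higher and 5.94% lower, and its median of 0.61 lay near the member median of 0.65. Since every acetate library of this comparison is ATAC2 and every untreated one ATAC1, acetate cannot be told apart from the prefix. With a prefix term in the model 5 member sites were higher and 0 lower. Only WT untreated has both prefixes, so this term rests on WT untreated 4 against WT untreated 1 and 2. Of the 18 sites 3 kept the call in that fit (Ogdh site 4 and Mdh1 sites 2 and 3) and 15 lost it. Without KO acetate 1 the count of higher sites was 7. Shares of all sites were not worked out for either fit, so these drops cannot be set beside the whole table. After loess 2 sites were higher (11.5% of all sites) and 4 lower (16.7%), and median-of-ratios gave 3 higher (13.3%) and 5 lower (15.9%), and total signal 5 higher (17.3%) and 3 lower (12.6%). Groups did not overlap at 24 higher and 2 lower sites (69.8% and 8.15% of all sites).

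The largest rise was at Ogdh site 3, which measured 112 and 83.0 with acetate against 25.2, 48.6 and 27.2 without it, at 1.55 ± 0.30 (limma adjusted p = 7.61e-06). The acetate libraries lay above all untreated ones, near the 71.3 to 109 of WT untreated, but the value with the prefix term was 1.03 (limma adjusted p = 0.0741). Mdh1 site 2 rose to 199 and 158, by 1.43 ± 0.25 (limma adjusted p = 8.61e-07), and was 1 of the 2 sites higher after loess (0.74, limma adjusted p = 0.0142). The other was Pcx site 2, at 555 and 535 with acetate, which rose by 0.87 ± 0.22 as deposited (limma adjusted p = 0.000577) and 0.34 after loess (limma adjusted p = 0.0479), and had 0.84 with the prefix term (limma adjusted p = 0.0532).

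All 4 Mdh2 sites rose as deposited, though none passed with the prefix term, among them site 1, from a mean of 620 ± 26.9 (SD, n = 3) to 929 ± 60.1 (SD, n = 2). Its difference of 0.58 ± 0.20 (limma adjusted p = 0.00881) lay near the table's median of 0.61. Idh2 site 1 (0.60 ± 0.21), Idh3a (0.49 ± 0.22) and Ogdh site 1 (0.48 ± 0.21) also passed, while the leading sites of Cs (0.065 ± 0.21), Fh1 (0.27 ± 0.24) and Mdh1 (0.38 ± 0.25) did not. Cs site 5 was lower by -0.39 after loess (limma adjusted p = 0.0342). Suclg2 site 4 rose from a mean of 140 ± 10.0 (SD, n = 3) to 342 ± 54.5 (SD, n = 2), by 1.27 ± 0.27 (limma adjusted p = 0.000147), but its value with the prefix term was -0.14 (limma adjusted p = 0.803). WT untreated 4, on which that term rests, measured 548 at this site, against 243 and 174 in WT untreated 1 and 2.

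Suclg2 site 2 and Pcx site 3 fell with acetate in KO. Suclg2 site 2 measured 19.6 and 4.53 with acetate, at -2.08 ± 0.52 (limma adjusted p = 0.000667), both below the 20.8 to 70.9 of the untreated libraries and the lower from 3 reads. Without KO acetate 3 it was -1.13 (limma adjusted p = 0.0968), and with the prefix term -0.41 (limma adjusted p = 0.694). Pcx site 3 measured 32.4 and 31.7 against 86.1 to 91.5, at -1.44 ± 0.33 (limma adjusted p = 0.000135), -2.21 after loess, and -0.64 with the prefix term (limma adjusted p = 0.345). WT untreated 4, which shares the ATAC2 prefix, measured 29.9 at that site. Suclg2 site 3 measured 59.7 and 40.7 with acetate, at -0.21 ± 0.35, which did not pass, and -0.98 after loess (limma adjusted p = 0.0154).

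**Figure D4:**
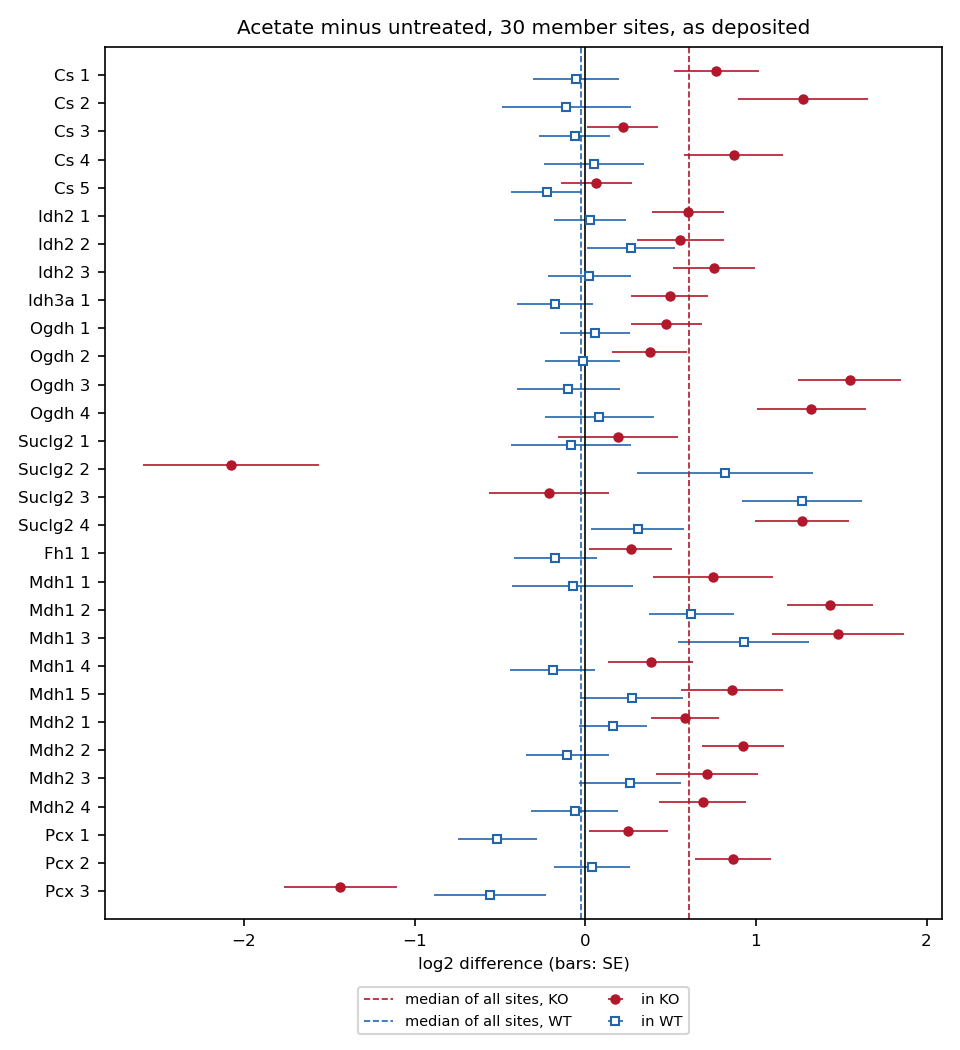
Log2 difference, acetate minus untreated, for the 30 member sites in KO and in WT, as deposited, with bars for the SE and dashed lines at the medians of all sites. In KO 27 points lie above 0 and 3 (Suclg2 sites 2 and 3 and Pcx site 3) below it, and in WT 15 lie above and 15 below, with Suclg2 site 3 farthest out at 1.27.

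In WT, 29 of the 30 sites were not called with acetate. Suclg2 site 3 was the 1 that rose (2.91% of all sites rose and 3.02% fell), from 27.5, 19.1 and 14.4 to 52.3 and 45.6, without overlap. The change was 2.42-fold, or 1.27 ± 0.35 (limma adjusted p = 0.0134), and 1.29 after loess (limma adjusted p = 0.0126). It was 1.70 among the ATAC2 libraries alone (limma adjusted p = 0.00319), but no longer passed without WT acetate 1 (limma adjusted p = 0.253), without WT acetate 2 (0.0848) or in a fit of the 2 groups alone (0.0882). The reads behind it were 22, 19 and 13 untreated and 17 and 65 with acetate. Pcx site 1, at 482, 401 and 411 untreated and 298 and 303 with acetate, was lower by -0.52 ± 0.23 as deposited, which did not pass, and by -0.48 after loess (limma adjusted p = 0.0495). After loess 1 site was thus higher (4.43% of all sites) and 1 lower (4.07%). Scaling by median-of-ratios gave 1 higher (4.1%) and 1 lower (3.48%), and scaling by total signal gave 1 higher (3.84%) and 0 lower (2.95%). Groups did not overlap at 3 higher and 3 lower sites (16.1% and 15.3%).

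The difference between the acetate effects in KO and WT was tested as an interaction. It was positive at 5 member sites (19.5% of all sites) and negative at 2 (3.61%), with a member median of 0.58 beside 0.67 over all sites. Positive sites were Cs site 2, Ogdh sites 3 and 4, Mdh2 site 2 and Pcx site 2, and negative ones Suclg2 sites 2 and 3, neither of which passed without KO acetate 3 (limma adjusted p = 0.0608 and 0.103). After loess 0 were positive (0.139%) and 3 negative (7.36%), Pcx site 3 joining the 2 Suclg2 sites at -1.67 (limma adjusted p = 0.00752). With median-of-ratios factors 0 were positive (0.199%) and 3 negative (6.56%), and with total signal 0 (0.28%) and 2 (5.49%). Leaving out 1 library gave 0 to 13 positive sites: 0 without KO untreated 1 or KO acetate 1, 1 without KO untreated 2, WT untreated 1 or WT acetate 2, 2 without WT acetate 1, 8 without KO untreated 3, 9 without WT untreated 4 and 13 without WT untreated 2. Negative sites numbered 0 to 2, with 0 without KO acetate 3 and 1 without KO untreated 1, KO untreated 2, KO acetate 1, WT acetate 1 or WT acetate 2. Shares of all sites were not worked out with a library left out. The KO arm of this test also cannot be told apart from the column prefix.

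Other genes of the pathway gave a similar picture. Of 17 further TCA cycle genes 14 had 32 sites. Without acetate 0 were higher and 32 lower in KO as deposited (9.07% and 89.6% of all sites). Their median was -0.88 as deposited and -0.065 after loess. The lowest p belonged to Sdhd, a succinate dehydrogenase subunit, at -1.46 ± 0.26 (limma adjusted p = 2.1e-06), or -0.54 after loess (limma adjusted p = 0.354). With acetate in KO 18 of these 32 rose and 0 fell as deposited (54.6% and 5.94% of all sites), but 1 rose and 3 fell after loess (11.5% and 16.7%). In WT 0 rose and 4 fell (2.91% and 3.02% of all sites), with the same counts after loess.

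Genes of anaplerosis and glutamate entry (12 genes, 10 with 29 sites) had 2 sites higher and 26 lower in untreated KO as deposited (9.07% and 89.6% of all sites), and 3 higher and 0 lower after loess (9.35% and 2.41%). The higher ones were at Pck1, which makes phosphoenolpyruvate from oxaloacetate (1.71 ± 0.39, limma adjusted p = 8.02e-05), and at Got2, the mitochondrial aspartate aminotransferase (1.70 ± 0.33, limma adjusted p = 7.59e-06). Glud1, glutamate dehydrogenase, had a site at -1.46 ± 0.26 (limma adjusted p = 9.45e-07), or -0.54 after loess (limma adjusted p = 0.168). Mitochondrial carriers (9 genes, 5 with 8 sites) had 1 higher and 7 lower, with Slc25a13 at 0.78 ± 0.24 (limma adjusted p = 0.00224) and Slc25a12 at -1.22 ± 0.21 (limma adjusted p = 3.78e-07), both aspartate-glutamate carriers. After loess the carriers had 1 higher and 1 lower. With acetate in KO 14 sites of the anaplerosis list were higher and 2 lower as deposited (54.6% and 5.94% of all sites). After loess 5 were higher and 7 lower (11.5% and 16.7%). Of the carriers' 8 sites 4 were higher and 0 lower as deposited, and 1 higher and 0 lower after loess, beside the same shares of all sites. No site of the 3 lists passed the test between KO and WT with acetate.

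Over the 10 libraries, each centred on its median, the profile of the members' mean log2 signal was most like that of Pdk2 (Pearson r = 0.94), Flt3 (0.94), Zfhx3 (0.93), Themis (0.93) and Alkbh7 (0.93), the 5 highest of 12571 genes compared. The points share the libraries and their depth, and the correlations are a description.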

How the data were processed

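ATAC-seq signal was analysed in 10 libraries of mouse Th17 cells: KO untreated (3), WT untreated (3), KO with acetate (2) and WT with acetate (2). The authors deposited 1 table of 39657 sites on GRCm38 with 1 signal value per library; 100% of a library's values were multiples of one step (tolerance 0.001 reads), which gave the reads behind each value. The submitters' processing notes list deepTools 3.5.1, DiffBind 3.6.1, DESeq2, DESeq, Genrich, Picard 2.10.9, BWA 0.7.16a and FastQC 0.11.5, without their roles. The table's sites are numbered as differential ones, and sites outside it were not analysed here. Columns numbered WT 4 and KO acetate 3 match no title's number and were placed in their group only, and 0 columns were left unused.

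A limma 3.58.1 model with trend and robust settings (R 4.3.3) was fitted to log2(value + 1) of all 10 libraries, with 4 group means and 5 contrasts. Benjamini-Hochberg adjustment ran over every site of the table, and calls were made under 0.05. An error after ± is the SD of signal or the SE of a log2 difference. Each member's leading site, each site called higher in any comparison and the site with the lowest adjusted p in untreated KO against WT were named, and other sites described were chosen after their values were seen. The members and lists were chosen with earlier results of these data known. Promoter windows came from RefSeq (GRCm38.p6). Some results of the lists are not reported here. The fit was tested on simulated data. Alternatives were other scalings (cyclic loess, median-of-ratios, total signal), a filter on low values, a pseudocount of 5, a prefix term, a replicate block, only the groups compared, single prefixes, no trend or robust fit, only sites overlapping the body, and leaving out each library. Python 3.11.15, numpy 2.4.6, pandas 2.3.3 and matplotlib 3.10.9 made tables and figures.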

Additional observations from a re-analysis of the deposited data

Results flagged for a closer look

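At 7 member sites the acetate effect differed between KO and WT by the interaction test (limma adjusted p under 0.05), given as KO minus WT on the log2 scale. Of these 5 were positive and 2 negative, beside 19.5% and 3.61% of all sites, so the counts lay near those of the whole table. The interaction is described first for the positive sites. It was 1.39 at Cs site 2 (limma adjusted p = 0.0481), 1.65 at Ogdh site 3 (limma adjusted p = 0.00995), 1.24 at Ogdh site 4 (limma adjusted p = 0.0393), 1.03 at Mdh2 site 2 (limma adjusted p = 0.0297) and 0.83 at Pcx site 2 (limma adjusted p = 0.0453). After loess these 5 were 0.61, 0.85, 0.44, 0.35 and 0.25, and none passed. It was -2.90 at Suclg2 site 2 (limma adjusted p = 0.011) and -1.48 at Suclg2 site 3 (limma adjusted p = 0.0308), or -3.64 and -2.27 after loess, where both passed. Neither passed with the replicate block, at -0.67 (limma adjusted p = 0.402) and -0.92 (limma adjusted p = 0.117), or without KO acetate 3, at -1.95 (limma adjusted p = 0.0608) and -1.21 (limma adjusted p = 0.103). Suclg2 site 3 also lost the call without KO untreated 1 or 2, KO acetate 1, or WT acetate 1 or 2 (limma adjusted p = 0.0574 to 0.0956). Each of the 5 positive sites lost the call without KO untreated 1 or KO acetate 1 (limma adjusted p = 0.0532 to 0.296), and Pcx site 2 lost it with the replicate block (limma adjusted p = 0.0569). At Suclg2 site 3 acetate changed KO by -0.21 and WT by 1.27, and at Suclg2 site 2 by -2.08 and 0.82.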

How the results depend on the processing

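In untreated KO against WT the 27 lower sites became 0 with cyclic loess, median-of-ratios and total signal, and 24 to 27 when a library was left out. Only 15 of the 30 sites overlapped a gene body, and of these 12 were lower and 3 higher. Later counts with body sites are also out of 15. The 3 higher sites became 0 under the filter on low values, which kept 19 of the 30 sites and none of the 3, and stayed at 3 when any library was left out. With acetate the counts between genotypes were 0 in every setting. For acetate in KO the 18 higher sites became 2 with loess, 3 with median-of-ratios, 5 with total signal, 5 with the prefix term, 11 with the filter and 8 with body sites, and 7 to 20 leaving out a library. The 2 lower became 4, 5, 0 (prefix term) and 0 (filter), and 1 to 2 leaving out a library. For acetate in WT the 1 higher site became 3 in ATAC2 libraries alone, 2 with the prefix term, 2 without trend or robust fit, 0 with the filter, 0 with only the groups compared, and 0 to 2 leaving out a library, and the 0 lower became 1 with loess and 1 with median-of-ratios. The 5 positive interactions became 0 with each other scaling, 3 with the filter, 3 without trend, 9 with the prefix term, 2 with body sites, and 0 to 13 leaving out a library (13 without WT untreated 2, 0 without KO untreated 1 or KO acetate 1). The 2 negative became 0 with the filter and 0 to 2 leaving out a library. The members' mean share of signal, 0.0872%, was 0.0584% with body sites. Same-numbered libraries' deviations from their group means correlated from -0.122 to 0.331. In a group of 2 libraries the deviations mirror each other, so these values cannot settle whether replicate numbers pair libraries. With the replicate block the counts were 1 lower for acetate in KO, 2 higher and 1 lower in WT, and 10 positive and 0 negative interactions. The cause was not tested. Shares of all sites were worked out only for the deposited values and the other scalings. Counts under the remaining settings therefore cannot be set beside the whole table.

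Directions of single sites reversed with scaling. In untreated KO against WT, loess, median-of-ratios and total signal gave 0.25, 0.37 and 0.28 at Cs site 5, 0.10, 0.21 and 0.12 at Idh2 site 1, 0.060, 0.11 and 0.024 at Idh3a, 0.045, 0.18 and 0.087 at Ogdh site 1, and 0.16, 0.11 and 0.023 at Fh1. Loess gave 0.058 at Cs site 4, 0.12 at Mdh1 site 4 (median-of-ratios 0.071), 0.062 at Mdh1 site 5 and 0.10 at Mdh2 site 3, and median-of-ratios and total signal gave 0.13 and 0.037 at Mdh2 site 1. For acetate in KO the reversed values were -0.013 at Idh2 site 1, -0.14 at Ogdh site 1 and -0.033 at Mdh2 site 1 (median-of-ratios), -0.039 at Ogdh site 1 (total signal), -0.038, -0.12 and -0.019 at Idh3a (loess, median-of-ratios, total signal), -0.052 and -0.0058 at Mdh2 sites 3 and 4 (loess), and -0.14 at Suclg2 site 4 (prefix term). With a pseudocount of 5 all 52 single-site results kept direction and call. Leaving out a library kept 450 and weakened 70. The 2 planned edgeR alternatives were not run, because the deposited values are not counts. Low reads limit Suclg2 site 2 most, with 3 reads in KO acetate 3.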
